A study of Mus musculus with 8 samples.

Results

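The genes described here build and steer endosomes. They are the 75 genes, of 25655 in the table, whose symbols begin with Chmp, Vps or Snx followed by a number: 10 Chmp genes, 35 Vps genes and 30 Snx genes. They were measured in the gastrocnemius, a calf muscle, of wild-type male mice at day 4, by 3′ mRNA sequencing, which reads a short stretch near the end of each polyadenylated transcript. The control group was 5 samples given 10% glycerol, and the sepsis group was 3 samples that received cecal slurry, which is gut content in suspension and causes a mixed bacterial infection. The genotype was WT throughout, age was not given in the sources used here, and nothing in the labels says that each sample came from a separate animal, so the p-values speak of the spread among these libraries, which may be technical. The question was how sepsis changes gene expression in skeletal muscle.

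Endosomes sort the membrane proteins that a cell takes in. ESCRT complexes gather ubiquitin-tagged proteins and bud them into the endosome: ESCRT-0 and ESCRT-I bind the cargo, ESCRT-II links to ESCRT-III, the charged multivesicular body proteins (Chmp genes) form filaments that cut the membrane, and the ATPase Vps4 takes the filaments apart. Tethering complexes named HOPS and CORVET bring endosomes and lysosomes together for fusion, while retromer, Retriever and the sorting nexins return receptors to the cell surface or the Golgi apparatus. Sorting nexins share a phox homology (PX) domain, which in many of them binds phosphoinositide lipids of endosomes. In muscle this machinery also serves membrane repair and the delivery of material to lysosomes. The VPS names come from yeast screens for vacuolar protein sorting, and 1 of them, Vps72, belongs to a chromatin-remodelling complex and not to a trafficking complex.

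Of the 75 genes, 66 had enough reads to be tested. With an adjusted p under 0.05 as the threshold in edgeR's quasi-likelihood test, 24 of them rose, 9 fell and 33 passed in neither direction. Of all 9810 genes tested, 50.4% passed the threshold, 25.2% upward and 25.2% downward, so the 33 of 66 endosomal genes that passed are at the background, with 36.4% higher and 13.6% lower. The median log2 fold change, sepsis minus control, was 0.28 for the 66 genes and 0.01 for all genes tested. Single genes ran from -1.79 to 1.21, and 6 rose and 3 fell by 2-fold or more. In 29 of the 66 genes (43.9%) the sepsis libraries did not overlap the control libraries, against 47.5% of all genes. Leaving out any 1 library gave 20 to 25 higher and 5 to 9 lower, with 5 lower without control library 1, 2 or 4 or sepsis library 1. Scaling by library totals alone moved the median of all genes to 0.43 and the split to 39 higher and 3 lower, while the median of the endosomal genes relative to all genes was 0.28, against 0.26 with the scaling used here.

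**Figure D1:**
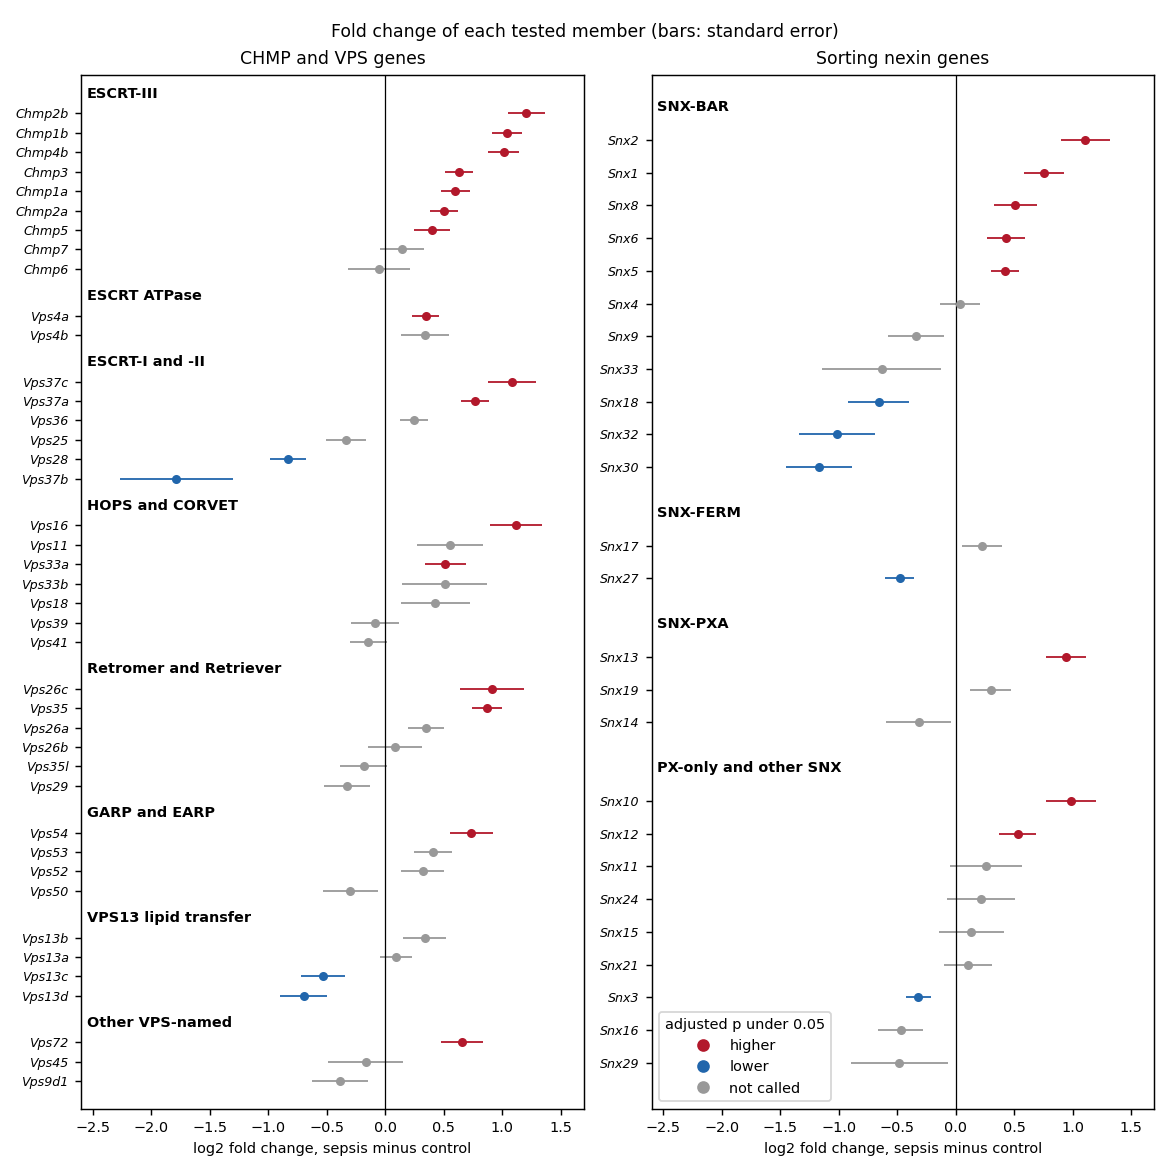
Log2 fold change (sepsis minus control) of the 66 tested genes, grouped by complex, with bars for the standard error. Red points passed an adjusted p of 0.05 upward (24 genes) and blue points downward (9 genes). The ESCRT-III block at the top left holds 7 red points of 9, and Vps37b stands lowest at -1.79. Snx3 lies at 0.10, on the other side of 0, with library totals alone.

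Levels below are in CPM, the reads of a gene as a share of its library, with library sizes scaled by trimmed-mean factors. Library totals ran from 3086277 to 4016329 reads, so 1 read was worth 0.278 to 0.362 CPM in controls and 0.210 to 0.266 CPM in sepsis. Scaling factors were 0.887 to 0.908 in controls and 1.13 to 1.30 in sepsis, and reads from the mitochondrial genome made up 21.7% to 26.7% of control libraries and 12.6% to 16.9% of sepsis libraries. The 6 muscle fibre markers, present in every library, summed to 136265 to 159876 CPM in controls and 58998 to 83969 CPM in sepsis, and all 6 were lower. Macrophage markers summed to 71.2 to 180 CPM in controls and 287 to 481 CPM in sepsis, with 4 of 6 tested markers higher, and Adgre1, a defining marker, at 10 and 36 reads in all. Neutrophil markers summed to 0 to 0.956 CPM and 59.6 to 136 CPM, with all 3 tested markers higher. The 5 markers of fibro-adipogenic progenitors, the connective tissue cells of muscle, were all lower (804 to 1469 and 256 to 366 CPM). These markers move with every difference given below, and their part in it was not tested. In bulk muscle, fewer cells of a type and less RNA per cell cannot be told apart.

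Most ESCRT-III genes rose. Of 9 tested, 7 were higher (77.8%, against 25.2% of all genes) and none was lower. Chmp6 and Chmp7 did not pass (-0.05 and 0.14 on the log2 scale). The median log2 fold change of the 9 was 0.60, against 0.01 for all genes. Their summed level was 401, 379, 401, 391 and 370 CPM in the control libraries and 644, 605 and 764 CPM in the sepsis libraries, 388 ± 13.8 (SD, n = 5) and 671 ± 82.8 (SD, n = 3). The count of higher genes lay between 6 and 7 when any library was left out. It was 5 with a block for replicate number, where Chmp2a (edgeR adjusted p = 0.0765) and Chmp5 (edgeR adjusted p = 0.209) did not pass.

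Chmp4b (ENSMUSG00000038467) encodes the main filament-forming subunit of ESCRT-III. It stood at 134, 137, 137, 142 and 133 CPM in controls and at 240, 236 and 350 CPM in sepsis. The control values lie close together and far below each sepsis value, and sepsis library 3 is the highest. This was a log2 fold change of 1.01 (SE 0.13, edgeR adjusted p = 2.99e-05).

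Chmp2b (ENSMUSG00000004843) and Chmp2a encode paralogs that act late in the filament, where Vps4 is recruited. Chmp2b was at 34.4, 23.2, 23.2, 21.3 and 23.6 CPM in controls and at 55.6, 54.4 and 65.1 CPM in sepsis. Control library 1 stands above the other controls but well below every sepsis library. The increase was 1.21 on the log2 scale (SE 0.16, edgeR adjusted p = 4.07e-05), the greatest of the 66 genes. Chmp2a measured 57.5, 54.9, 59.0, 49.5 and 51.0 CPM in controls and 77.7, 68.1 and 85.8 CPM in sepsis, again with no overlap. Its change was smaller, at 0.50 (SE 0.12, edgeR adjusted p = 0.00368).

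Chmp1a and Chmp1b (ENSMUSG00000109901) encode regulatory subunits that also act in cell division. Chmp1b gave 31.1, 28.9, 35.8, 30.4 and 30.6 CPM in controls and 58.5, 62.4 and 72.8 CPM in sepsis, a log2 fold change of 1.04 (SE 0.13, edgeR adjusted p = 2.08e-05). Chmp1a gave 35.3, 41.1, 41.3, 43.0 and 36.0 CPM in controls and 64.6, 57.8 and 56.2 CPM in sepsis, a log2 fold change of 0.60 (SE 0.12, edgeR adjusted p = 0.00126). Groups overlapped for neither gene. Chmp3, a partner of Chmp2a in the filament, rose by 0.63 (SE 0.12) and Chmp5, which binds the Vps4 cofactor Vta1, by 0.40 (SE 0.15). The call for Chmp5 was near the threshold (edgeR adjusted p = 0.0407) and was lost in 11 of 16 alternative settings, among them leaving out control library 2, 3, 4 or 5 or sepsis library 1 or 3 (adjusted p of 0.0624 to 0.101). Chmp4c was not tested, with 19 reads over the controls and 13 over the sepsis libraries.

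Vps4a and Vps4b encode the ATPases that recycle ESCRT-III. Vps4a lay at 52.5, 53.0, 59.6, 57.1 and 54.8 CPM in controls and at 72.1, 64.1 and 75.1 CPM in sepsis. The lowest sepsis library was above the highest control. Vps4a thus differed by 0.35 on the log2 scale (SE 0.11, edgeR adjusted p = 0.0217), a call lost without control library 2 (0.0558), sepsis library 1 (0.0566) or sepsis library 3 (0.0544). With a block for replicate number Vps4a did not pass either (edgeR adjusted p = 0.133). Vps4b differed by a like 0.34 but did not pass (edgeR adjusted p = 0.182, and 0.0446 without sepsis library 1).

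ESCRT-I and ESCRT-II genes moved in both directions. Of 6 tested, Vps37a and Vps37c were higher, Vps28 and Vps37b were lower, and the ESCRT-II genes Vps36 and Vps25 did not pass (0.24 and -0.34), although Vps36 did without sepsis library 2 (0.32, adjusted p = 0.0433). The 4 Vps-named genes of ESCRT-I thus split evenly. The median of the 6 log2 fold changes was -0.05. Of the 6, 66.7% passed, against 50.4% of all genes, with 33.3% higher, against 25.2%. Vps37d had 6 reads over the controls and none over the sepsis libraries and was not tested.

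Vps28 (ENSMUSG00000115987) encodes the subunit through which ESCRT-I meets ESCRT-II. It fell from 67.5, 57.4, 59.0, 74.5 and 62.5 CPM in controls to 40.7, 39.7 and 27.9 CPM in sepsis. Every sepsis library lies below every control, and the log2 fold change was -0.83 (SE 0.15, edgeR adjusted p = 0.00057).

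The Vps37 genes encode alternative versions of a single ESCRT-I subunit. Vps37a (ENSMUSG00000031600) was at 89.9, 95.4, 90.0, 76.7 and 89.2 CPM in controls and at 169, 152 and 130 CPM in sepsis, a rise of 0.77 (SE 0.12, edgeR adjusted p = 0.000144). Vps37c (ENSMUSG00000048832) was at 18.3, 15.1, 16.0, 12.3 and 9.24 CPM in controls and at 24.2, 33.8 and 32.4 CPM in sepsis, a rise of 1.08 (SE 0.21, edgeR adjusted p = 0.000716). Vps37b moved the other way, from 3.61, 3.14, 1.81, 4.70 and 1.91 CPM to 0.532, 1.05 and 0.913 CPM. None of these groups overlapped, but Vps37b rests on 48 control reads and 11 sepsis reads and falls under the filter on low counts without control library 1, 2 or 4. Its log2 fold change was -1.79 (SE 0.49, edgeR adjusted p = 0.00782), and with voom weights the call was lost (adjusted p = 0.0841). Exons of Vps37b overlap those of Hip1r on the other strand, which was higher by 1.79, and the strand setting of the counting was not given in the sources used here.

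**Figure D2:**
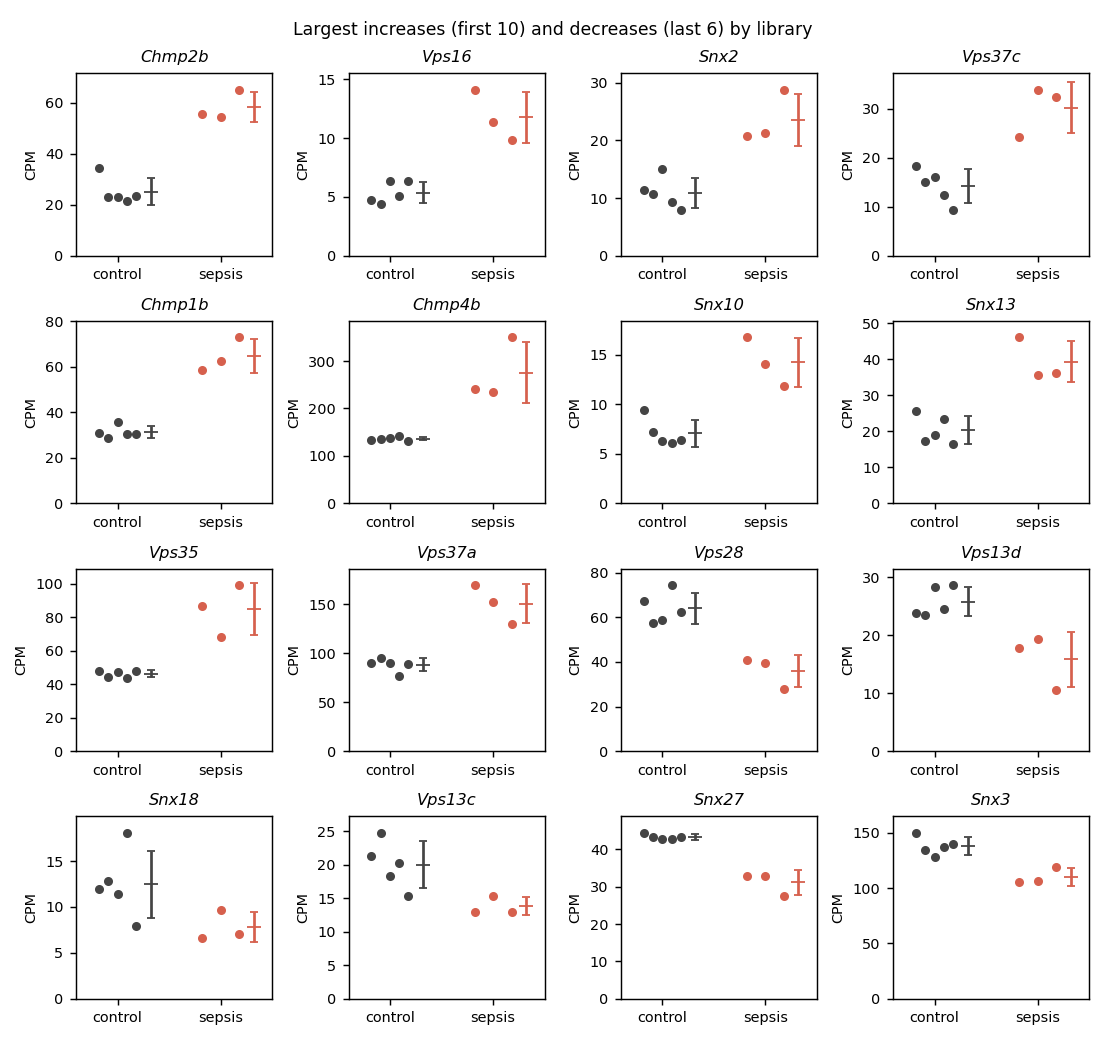
CPM in each library for the 10 called genes with the largest increase and the 6 with the largest decrease at an average log2 CPM of at least 3; dots are libraries (5 control, 3 sepsis), bars are mean ± SD, and each vertical axis starts at 0. Groups are apart in all but Snx18 and Vps13c. Snx3 has a log2 fold change of 0.10, and not one below 0, with library totals alone.

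HOPS and CORVET share a core of Vps11, Vps16, Vps18 and Vps33a. In the core, Vps16 and Vps33a were higher, while Vps11 and Vps18 had log2 fold changes of 0.55 and 0.43 that did not pass (for Vps11, adjusted p = 0.0277 without sepsis library 2). Vps39 and Vps41, the subunits that HOPS adds, were at -0.09 and -0.14 and did not pass, and neither did Vps33b (0.51), which pairs with Vipas39. Vps8, a CORVET subunit, had 33 control reads and 16 sepsis reads and was not tested. In all, 2 of 7 tested genes of this class were higher (28.6%, near the 25.2% of all genes) and none lower, with a median of 0.51.

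Vps16 (ENSMUSG00000027411) was at 4.72, 4.39, 6.32, 5.06 and 6.37 CPM in controls and at 14.1, 11.3 and 9.82 CPM in sepsis. The groups were apart at this low level, and the log2 fold change was 1.12 (SE 0.22, edgeR adjusted p = 0.000998). Vps33a was at 20.3, 18.5, 12.3, 15.5 and 18.5 CPM in controls and at 26.3, 22.9 and 24.0 CPM in sepsis. Its log2 fold change was 0.51 (SE 0.18, edgeR adjusted p = 0.0271), and the call was lost without control library 3 (0.0652), control library 4 (0.0558) or sepsis library 1 (0.0836). Vps33a also lost its call with a replicate block (edgeR adjusted p = 0.0974) and with voom weights (adjusted p = 0.0593).

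Promoters of these genes were read from RefSeq (GRCm38.p6, 250 bases before to 50 after each start), which had an entry for 49 of the 75 genes. The letters searched, on both strands, were CACGTG, the E-box bound by many basic helix-loop-helix factors, TCACGTGA, a longer form that contains CACGTG and is the core of the element described in lysosomal genes, and GTAAACA, a forkhead motif. TCACGTGA was in 0.974% of all 32851 promoters, or 1.12% of the 27025 genes they belong to, and in the promoters of 3 of the 49 genes, which are shown with those letters in capitals, beside Chmp4b, which has none:
Vps16, chr2:130424070-130424369, plus strand: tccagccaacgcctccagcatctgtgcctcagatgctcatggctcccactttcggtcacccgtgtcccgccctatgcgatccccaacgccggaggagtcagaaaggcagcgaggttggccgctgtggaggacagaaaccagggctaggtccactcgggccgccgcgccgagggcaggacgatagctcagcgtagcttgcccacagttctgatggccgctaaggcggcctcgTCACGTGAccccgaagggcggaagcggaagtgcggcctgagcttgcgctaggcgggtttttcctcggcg
Vps33a, chr5:123572966-123573265, minus strand: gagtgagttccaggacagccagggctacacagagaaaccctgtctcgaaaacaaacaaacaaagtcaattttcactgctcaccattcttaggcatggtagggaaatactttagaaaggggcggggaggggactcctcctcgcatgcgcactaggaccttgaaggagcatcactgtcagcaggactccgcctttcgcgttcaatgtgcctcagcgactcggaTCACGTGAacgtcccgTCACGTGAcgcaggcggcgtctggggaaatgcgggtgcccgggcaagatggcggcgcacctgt
Vps26a, chr10:62486549-62486848, minus strand: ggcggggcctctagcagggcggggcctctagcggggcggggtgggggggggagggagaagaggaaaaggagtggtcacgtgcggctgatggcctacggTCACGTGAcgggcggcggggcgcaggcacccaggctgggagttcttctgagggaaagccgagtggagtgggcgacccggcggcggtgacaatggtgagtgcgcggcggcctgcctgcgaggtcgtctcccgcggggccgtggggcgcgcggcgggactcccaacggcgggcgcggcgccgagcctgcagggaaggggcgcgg
Chmp4b, chr2:154656776-154657075, plus strand: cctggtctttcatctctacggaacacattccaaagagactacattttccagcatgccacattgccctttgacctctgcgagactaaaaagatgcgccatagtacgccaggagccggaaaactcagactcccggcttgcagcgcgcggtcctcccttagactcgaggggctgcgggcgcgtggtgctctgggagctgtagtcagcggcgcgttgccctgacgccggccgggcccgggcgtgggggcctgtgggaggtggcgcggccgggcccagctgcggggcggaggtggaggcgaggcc
The match in Vps16 began 19 bases before the start. Vps33a held 2 matches, the first 29 bases before the start. In Vps26a it began 152 bases before the start in the entry shown, and the other entry of that gene held it too. CACGTG was in 7.15% of all promoters (8.09% of genes) and in 7 of the 49 genes (14.3%), namely Vps16, Vps33a, Vps26a, Vps50, Snx5, Snx8 and Snx18. By call, these were 4 of the 19 higher genes with an entry, 1 of 4 lower and 2 of 21 not called. GTAAACA was in 3.65% of all promoters (4.05% of genes) and in 2 of the 49 genes, Vps26b and Vps45, neither of which passed the expression test. A match describes letters in this window and says nothing about binding.

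Retromer consists of Vps35, Vps29 and either Vps26a or Vps26b, and Retriever of Vps35l, Vps26c and the shared Vps29. Of these 6 genes, Vps35 and Vps26c were higher (33.3%, against 25.2% of all genes) and none was lower, with a median of 0.22. Vps35 (ENSMUSG00000031696), the scaffold of retromer, was at 48.0, 44.6, 47.6, 43.8 and 48.1 CPM in controls and at 87.0, 68.5 and 99.3 CPM in sepsis. The controls span a narrow range, all of it under the lowest sepsis library, and the log2 fold change was 0.87 (SE 0.13, edgeR adjusted p = 0.000117). Its retromer partners did not pass, with log2 fold changes of 0.35 for Vps26a, 0.09 for Vps26b and -0.33 for Vps29. Without sepsis library 2 Vps26a passed, at 0.43 (edgeR adjusted p = 0.0463).

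In Retriever, Vps26c was at 3.61, 4.08, 4.82, 6.51 and 5.74 CPM in controls and at 6.12, 10.1 and 11.4 CPM in sepsis. Its lowest sepsis library falls within the control range. Vps26c differed by 0.91 on the log2 scale (SE 0.27, edgeR adjusted p = 0.0132), and without sepsis library 3 the adjusted p was 0.0631. Vps35l, the Retriever scaffold, was at -0.18 and did not pass.

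GARP tethers endosome-derived vesicles to the Golgi apparatus, and EARP is a related complex in which Vps50 takes the place of Vps54. Vps54 was at 8.60, 9.42, 10.5, 7.59 and 9.24 CPM in controls and at 15.4, 13.2 and 16.9 CPM in sepsis, with no overlap and a log2 fold change of 0.74 (SE 0.18, edgeR adjusted p = 0.00475). The call for Vps54 was lost with a replicate block (edgeR adjusted p = 0.0585). Vps53, Vps52 and Vps50 did not pass, at 0.41, 0.32 and -0.30. For Vps53 the edgeR adjusted p was 0.0502, and it passed without control library 3 (0.0425), control library 4 (0.0422) or sepsis library 3 (0.0207). Its exons overlap those of Glod4 on the same strand, which was lower (-0.83). Exons of Vps52 overlap those of Rps18 on the other strand, which was higher (0.83), with 4572 control and 6573 sepsis reads. Vps51, shared by both complexes, had 22 control and 32 sepsis reads and was not tested.

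The VPS13 genes encode large bridges that carry lipids between organelles. Of 4, Vps13c and Vps13d were lower, and Vps13a and Vps13b did not pass (0.09 and 0.34). Vps13a was at 33.0, 26.7, 31.9, 30.7 and 32.5 CPM in controls and at 30.3, 36.3 and 32.2 CPM in sepsis. Exons of Vps13b overlap those of Cox6c on the other strand, which was lower (-0.80), with 17627 control and 8149 sepsis reads. Vps13d (ENSMUSG00000020220), which acts at mitochondria among other sites, was at 23.9, 23.5, 28.3, 24.6 and 28.7 CPM in controls and at 17.8, 19.3 and 10.5 CPM in sepsis. Groups were apart, with sepsis library 3 the lowest, and the log2 fold change was -0.70 (SE 0.20, edgeR adjusted p = 0.0103). The value was -0.27 with library totals alone and did not pass (adjusted p = 0.285). With a replicate block it was -0.70 and did not pass either (edgeR adjusted p = 0.0655).

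Vps13c (ENSMUSG00000035284) was at 21.4, 24.8, 18.4, 20.3 and 15.3 CPM in controls and at 13, 15.3 and 13 CPM in sepsis. The top sepsis value and the bottom control value overlap. Vps13c had a log2 fold change of -0.53 (SE 0.19, edgeR adjusted p = 0.029), and its call was lost in 8 of 16 settings, among them leaving out control library 1, 2 or 4 or sepsis library 1 or 3 (adjusted p of 0.0531, 0.0729, 0.0536, 0.0725 and 0.0701).

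Of the remaining VPS-named genes, Vps72 was higher by 0.65 (SE 0.18, edgeR adjusted p = 0.00932), at 110, 125, 141, 150 and 132 CPM in controls and 197, 145 and 279 CPM in sepsis. Sepsis library 2 lies inside the control range and library 3 far above it. As a subunit that handles the histone variant H2A.Z, Vps72 is outside the endosomal machinery. Vps45, a regulator of SNARE pairing, and Vps9d1 did not pass (-0.17 and -0.39).

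**Figure D3:**
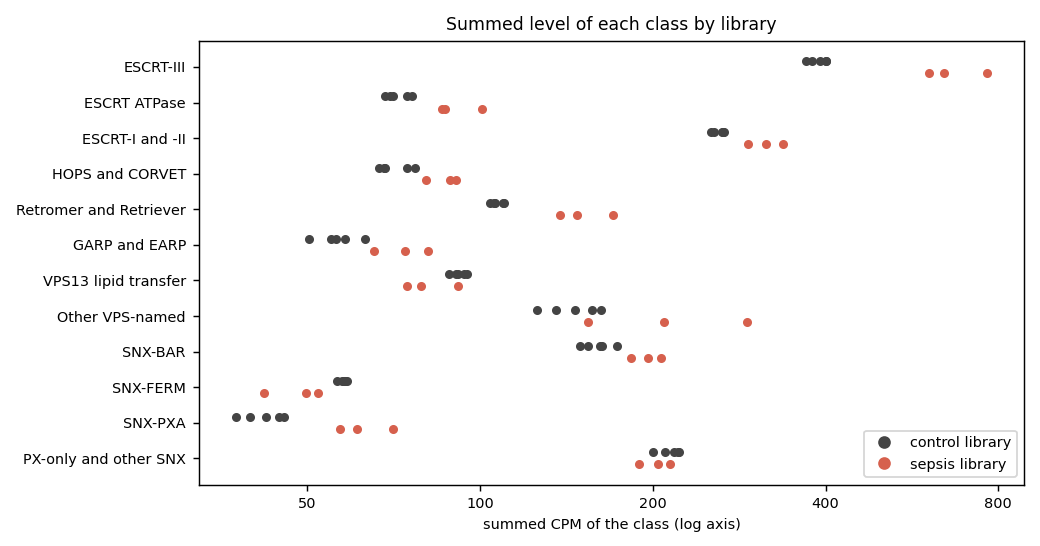
Summed CPM of each class of genes in each library (log axis), with 5 control libraries in grey and 3 sepsis libraries in red. ESCRT-III sums lie at 370 to 401 CPM in controls and 605 to 764 CPM in sepsis, while the sums of the VPS13, other VPS-named and PX-only classes overlap between groups.

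Sorting nexins moved in both directions. Of 25 tested, 8 were higher and 5 lower, with a median log2 fold change of 0.13. Sorting nexins with a BAR domain, which bends membranes, gave 5 higher and 3 lower of 11 (median 0.04). Of these 11, 72.7% passed, against 50.4% of all genes, with 45.5% higher, against 25.2%. Inside that class is the ESCPE-1 coat (Snx1, Snx2, Snx5 and Snx6), which forms tubules that return receptors. All 4 of its genes were higher, against 25.2% of all genes, with a median of 0.59. Only Snx1 and Snx2 kept the call in all 16 alternative settings. The BAR genes that fell were Snx18, Snx30 and Snx32.

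Snx2 (ENSMUSG00000034484) was at 11.4, 10.7, 15.1, 9.40 and 7.97 CPM in controls and at 20.7, 21.2 and 28.8 CPM in sepsis. Every sepsis value is above the controls, and the log2 fold change was 1.11 (SE 0.21, edgeR adjusted p = 0.000679). Snx1 was at 10.5, 8.79, 9.64, 9.76 and 9.24 CPM in controls and at 14.1, 17.6 and 16.9 CPM in sepsis, a rise of 0.76 (SE 0.17, edgeR adjusted p = 0.00258). Snx5 and Snx6, which take part as alternatives in the coat, rose by 0.42 (SE 0.12) and 0.43 (SE 0.16). The call for Snx5 was lost with a replicate block (edgeR adjusted p = 0.144). Exons of Snx5 overlap those of Mgme1 on the other strand, which was lower (-1.51). The calls for Snx6 and for Snx8, another BAR gene (0.51, SE 0.18), were lost in 11 and 9 of 16 settings. Snx6 lost its call without control library 1, 2, 3 or 4 or sepsis library 2 or 3 and Snx8 without control library 1, 2 or 3 or sepsis library 2, so the class had 3 higher genes without control library 1, 2 or 3 or sepsis library 2. It had 1 lower gene without control library 2 or sepsis library 1.

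The BAR genes with an SH3 domain, Snx9, Snx18 and Snx33, act in endocytosis at the cell surface. Snx18 (ENSMUSG00000042364) was at 11.9, 12.9, 11.4, 18.1 and 7.97 CPM in controls and at 6.65, 9.66 and 7.08 CPM in sepsis. Control library 5 lies inside the sepsis range. A log2 fold change of -0.66 (SE 0.26, edgeR adjusted p = 0.0483) sat at the threshold and failed in 11 of 16 settings, among them leaving out control library 1, 2, 3 or 4 or sepsis library 1 or 3. Snx9 and Snx33 were at -0.34 and -0.63 and did not pass.

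Snx30, whose product forms dimers with that of Snx4 in autophagy and recycling, was at 7.49, 5.02, 6.63, 6.15 and 5.10 CPM in controls and at 2.13, 3.15 and 2.74 CPM in sepsis. It fell by 1.17 on the log2 scale (SE 0.28, edgeR adjusted p = 0.00397). Snx32, a paralog of Snx5 and Snx6, was at 4.72, 6.91, 5.42, 3.25 and 5.42 CPM in controls and at 1.86, 3.15 and 2.51 CPM in sepsis, a log2 fold change of -1.02 (SE 0.33, edgeR adjusted p = 0.0192). Groups did not overlap for either gene, although both are low. Snx32 lost its call without control library 2 (0.0508) or sepsis library 1 (0.0638), with library totals alone (-0.59, adjusted p = 0.153) and with voom weights (0.0927). Its exons overlap those of Cfl1 on the other strand, which was higher. Snx4 itself was at 0.04, and Snx7 was not tested (23 and 22 reads).

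Snx17 and Snx27 have a FERM domain and bind the tails of receptors to send them back to the surface, Snx17 with Retriever and Snx27 with retromer. Snx27 (ENSMUSG00000028136) was at 44.4, 43.3, 42.8, 42.7 and 43.3 CPM in controls and at 33.0, 33.0 and 27.4 CPM in sepsis. The controls are almost level and all stand above the sepsis libraries. This gave a log2 fold change of -0.48 (SE 0.13, edgeR adjusted p = 0.00629), but -0.06 with library totals alone (adjusted p = 0.731). A replicate block gave -0.49, and the call was lost (edgeR adjusted p = 0.0624). Snx17 was at 11.9, 14.1, 15.4, 15.2 and 15.3 CPM in controls and at 19.1, 16.8 and 14.6 CPM in sepsis. Those groups overlap, and its 0.23 did not pass (edgeR adjusted p = 0.287). Exons of Snx17 overlap those of Eif2b4 on the other strand, which was higher. Snx31 had no read in any library.

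Snx13, Snx14, Snx19 and Snx25 carry a PX-associated domain and work at contacts of the endoplasmic reticulum with other organelles. Snx13 (ENSMUSG00000020590) was at 25.5, 17.3, 19.0, 23.5 and 16.6 CPM in controls and at 46.0, 35.7 and 36.3 CPM in sepsis. Every sepsis library was above every control, and the log2 fold change was 0.95 (SE 0.17, edgeR adjusted p = 0.000535). Snx19 and Snx14 were at 0.30 and -0.31 and did not pass, and Snx25 was not tested (18 and 13 reads).

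Among sorting nexins with a PX domain alone or with other domains, 2 of 9 were higher (22.2%, against 25.2% of all genes). In this class 1 gene was lower and the median was 0.13. Snx10 (ENSMUSG00000038301), known for its part in acid secretion by osteoclasts and in macrophages, was at 9.44, 7.22, 6.32, 6.15 and 6.37 CPM in controls and at 16.8, 14.1 and 11.9 CPM in sepsis. Its log2 fold change was 0.99 (SE 0.21, edgeR adjusted p = 0.00167). The summed macrophage markers were 180, 83.5, 85.5, 71.2 and 82.5 CPM in the same controls and 287, 481 and 300 CPM in the same sepsis libraries. Control library 1 is highest of the controls in both, while sepsis library 2 is highest in the markers and between the other libraries in Snx10. The part of macrophages in the Snx10 difference was not tested. Snx20, known from blood cells, had only 6 control and 9 sepsis reads.

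Snx3 and Snx12 are close paralogs, and Snx3 works with retromer in recycling. Snx3 (ENSMUSG00000019804) was at 150, 134, 128, 137 and 140 CPM in controls and at 105, 106 and 119 CPM in sepsis. The groups were apart with this scaling, and the log2 fold change was -0.32 (SE 0.11, edgeR adjusted p = 0.0235). The value was 0.10 with library totals alone (adjusted p = 0.442), below the shift of 0.43 in all genes. The call was also lost without control library 1 (0.0506), control library 4 (0.0503) or sepsis library 1 (0.0601). Snx3 did not pass with a replicate block (edgeR adjusted p = 0.184) or with no low-count filter (0.0882). Snx12 was at 16.7, 17.9, 15.4, 17.4 and 17.8 CPM in controls and at 20.5, 25.0 and 28.1 CPM in sepsis, a log2 fold change of 0.53 (SE 0.16, edgeR adjusted p = 0.0131). Its adjusted p was 0.0563 without sepsis library 3 and 0.0829 with a replicate block (both edgeR). Snx11, Snx15, Snx16, Snx21, Snx24 and Snx29 did not pass, with log2 fold changes from -0.48 to 0.26, and Snx22 had 11 reads in each group.

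Whether paralogs changed alike was asked with the ratio of their reads inside each library, which does not depend on how libraries are scaled. Of 15 pairs listed, 13 could be tested. The test was an exact permutation of group labels, two-sided, over all 56 divisions of the libraries into 5 and 3, and its smallest p is 0.0179. In 6 pairs the ratio differed with a raw p under 0.05, and in 5 of them also after Benjamini-Hochberg adjustment over the 13 pairs (adjusted p = 0.0464). Only the change in a ratio is read here, not its level.

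The ratio of Vps37a to Vps37b went from 4.88 on the log2 scale in controls to 7.34 in sepsis, a difference of 2.46 (exact permutation p = 0.0179). Vps37b had only 2, 5 and 4 reads in the sepsis libraries. With 2 added to the reads in place of 0.5 the difference was 2.20 (exact permutation p = 0.0179). Snx3 to Snx12 went from 3.0 to 2.17, a difference of -0.83 (exact permutation p = 0.0179). Chmp2a to Chmp2b went from 1.13 to 0.40 (exact permutation p = 0.0179), so Chmp2b gained on its paralog although both rose. The same held for Chmp1b over Chmp1a, with a ratio of 0.32 in controls and -0.11 in sepsis (exact permutation p = 0.0179). Snx17 to Snx27 went from -1.59 to -0.88 (exact permutation p = 0.0179). Every library of one group lay beyond every library of the other in these 5 pairs.

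Vps13a to Vps13c went from 0.64 to 1.25 (exact permutation p = 0.0357, adjusted p = 0.0774). Its exact permutation p was 0.0571 without control library 1, 2, 3 or 4 and 0.143 without any 1 sepsis library. Without control library 2, 3, 4 or 5 the exact permutation p for Chmp2a to Chmp2b was 0.0571, where the smallest possible is 0.0286, and without sepsis library 3 that for Chmp1a to Chmp1b was 0.0952. After adjustment no pair passed without any 1 library, the smallest adjusted p being 0.0619. The smallest possible exact permutation p is 0.0286 without a control library and 0.0476 without a sepsis library. A pass after adjustment would thus need most of the 13 pairs at that smallest p. These adjusted values therefore cannot show whether a pair is stable. The other 7 pairs did not pass, although Snx10 to Snx11 did without control library 1 (1.07, exact permutation p = 0.0286). Vps4a to Vps4b differed by 0.03 (exact permutation p = 0.893), Snx5 to Snx6 by 0.01 (exact permutation p = 0.982) and Snx1 to Snx2 by -0.38 (exact permutation p = 0.161). These p-values do not show that the paralogs of a pair changed alike.

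**Figure D4:**
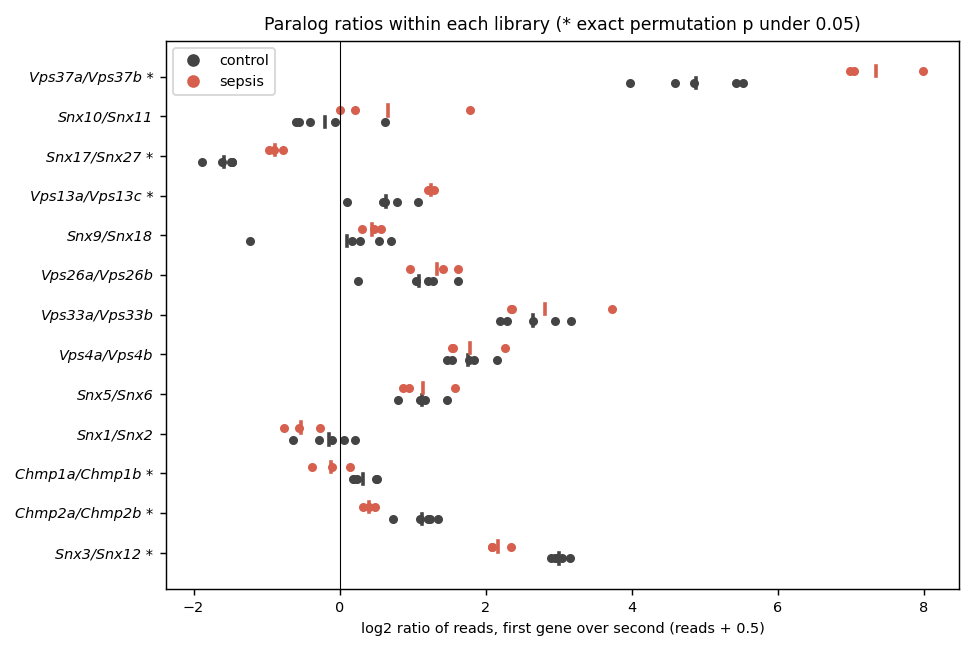
Log2 ratio of reads between paralogs within each library (reads plus 0.5), for 13 pairs; dots are libraries (5 control in grey, 3 sepsis in red) and short bars are group means. Asterisks mark the 6 pairs with an exact permutation p under 0.05, and the widest shift is that of Vps37a to Vps37b, from 4.88 to 7.34. Vps37b had only 2, 5 and 4 reads in the sepsis libraries.

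Genes of the same machinery with other names were counted from lists of 97 genes, 96 of which matched a row. Their counts stand beside 25.2% of all tested genes higher, 25.2% lower and a median of 0.01, and no list was tested as a set. Among 20 tested ESCRT partners, 10 were higher and 2 lower (median 0.50). Hgs, the ESCRT-0 subunit that binds ubiquitinated cargo, rose from 8.57 ± 2.79 CPM (SD, n = 5) to 95.1 ± 7.13 CPM (SD, n = 3), a log2 fold change of 3.46 (SE 0.20). Ubap1, an ESCRT-I subunit, rose by 1.89 (SE 0.13), and Pdcd6ip, known as ALIX and a recruiter of Chmp4 proteins, by 0.73 (SE 0.14). Mvb12b, another ESCRT-I subunit, fell by 1.40 on the log2 scale (SE 0.23) and Snf8, of ESCRT-II, by 0.68 (SE 0.19). The ESCRT-I subunits Tsg101 and Mvb12a did not pass (0.22 and -0.06, edgeR adjusted p = 0.260 and 0.897). Over both sets, ESCRT-I held genes that rose (Vps37a, Vps37c, Ubap1), genes that fell (Vps28, Vps37b, Mvb12b) and genes that did not pass (Tsg101, Mvb12a).

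Of 18 retromer regulators and genes of the WASH and CCC complexes, which act beside retromer and Retriever, 2 were higher and 2 lower (median 0.02). Washc2 and Washc1, of the WASH complex, were higher by 1.78 (SE 0.19) and 0.75 (SE 0.16). Commd1 and Commd3, of the CCC complex, were lower (-2.05, SE 0.20, and -0.71, SE 0.13). The split of this list was 8 higher and 1 lower with library totals alone. Of 9 partners of HOPS and CORVET, 5 were higher and 2 lower (median 0.80), led by the lysosomal GTPases Arl8a (2.49, SE 0.27) and Arl8b (0.86, SE 0.14), which position lysosomes and recruit HOPS, and by their adaptor Plekhm2 (1.32, SE 0.26). Ccz1, part of the exchange factor for Rab7, and Rilp, a Rab7 effector, were lower (-0.65 and -0.70). No gene of the list was lower with library totals alone, and 1 was without control library 1, 2 or 4 or sepsis library 3.

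Of 16 endosomal phosphoinositide genes, whose lipids the PX domains bind, 6 were higher and none lower (median 0.28). They included the phosphatases Mtmr4 (1.37, SE 0.21) and Mtm1 (1.83, SE 0.36) and Uvrag (1.23, SE 0.21), a subunit of the lipid kinase complex built on Vps34. Of 12 SNARE genes, Snap29 was higher (0.73), and Vti1b and Ykt6 were lower (-0.94 and -0.46). In this list 1 gene was lower without control library 4, sepsis library 1 or sepsis library 3, and library totals alone gave 6 higher and 1 lower. Of 6 other PX-domain genes, Sgk3 and Pxk were higher (1.34 and 0.65) and Sh3pxd2a was lower (-0.98). Without sepsis library 3 neither Sgk3 nor Pxk passed.

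Of 11 tested receptors that this machinery sorts, 5 were lower and 1 higher (median -0.25, against 25.2% of all genes lower and 25.2% higher), and with library totals alone 3 were lower and 2 higher. Tfrc, the transferrin receptor and a cargo of Snx3 and retromer, fell from 71.9 ± 17.8 CPM (SD, n = 5) to 6.33 ± 4.47 CPM (SD, n = 3), a log2 fold change of -3.48 (SE 0.41). Sort1, a sorting receptor recycled by retromer, had a log2 fold change of -1.34 (SE 0.30) and Vldlr, a lipoprotein receptor, had a log2 fold change of -1.03 (SE 0.25). M6pr, which carries enzymes to lysosomes, was higher by 0.77 (SE 0.22).

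**Figure D5:**
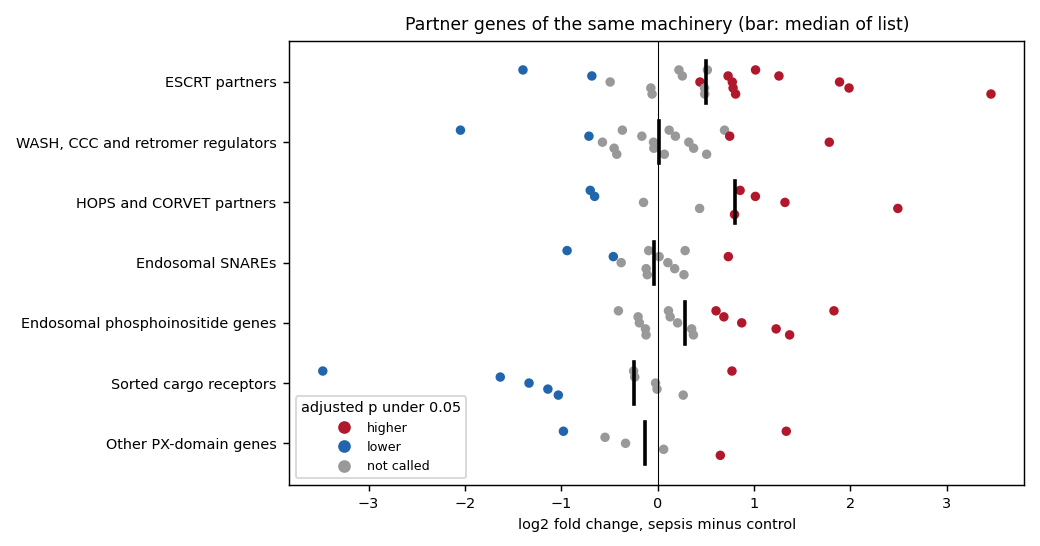
Log2 fold change (sepsis minus control) of the tested genes in 7 lists of the same machinery whose names do not begin with Chmp, Vps or Snx; each dot is a gene, coloured by call, and black bars are list medians. Hgs stands highest at 3.46 among the ESCRT partners and Tfrc lowest at -3.48 among the receptors. The SNARE list, with library totals alone, turned from 1 higher and 2 lower to 6 higher and 1 lower.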

How the data were processed

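Per the labels' protocols, spin-column RNA (25 ng) was made into QuantSeq 3′ libraries. Raw counts of reads for each gene, as the authors deposited them with 1 column per library and no pooling, were the only input. Per the submitters' processing notes reads were placed on GRCm39. Aligner, counter and strand setting are not given in the sources used here. Genes were tested with edgeR 4.0.16 in R 4.3.3: expression filter (minimum count 10, minimum total 15), TMM factors, robust quasi-likelihood F test of 3 sepsis against 5 control libraries, Benjamini-Hochberg adjustment over 9810 genes and a threshold of 0.05. The SE is the absolute log2 fold change over the square root of F. The procedure was tested on simulated data. Pairs of libraries differed by more than sampling noise, with a chi-square per degree of freedom of at least 2.04 in controls and at least 11.0 in sepsis, so none was a duplicate. 

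Members and lists were chosen with earlier results of these data known. Values per library are given for the called genes with the largest changes, up to 10 in each direction, at an average log2 CPM of at least 3 (only 6 fell), for paralogs whose ratio passed, and for Vps4a, Vps35 and Chmp4b. Chosen after their values were seen were Snx30, Snx32, Vps26c, Vps54, Vps33a, Vps72 and Snx1. From each list of partners, up to 3 called genes per direction with the smallest p are named. Genes sharing exons were found in GENCODE M21, used for names only. The 16 alternatives were other scalings (relative log expression, upper quartile, library totals), no filter, a minimum count of 30, DESeq2 1.42.0, voom in limma 3.58.1 with quality weights per group, a replicate block, and each library left out.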

Additional observations from a re-analysis of the deposited data

Results flagged for a closer look

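In 2 of the 66 genes tested, a single control library stood far from the other 4; by chance about 1 in 20 groups would be picked out in this way. Chmp2b was at 34.4 CPM in control library 1, against 21.3 to 23.6 CPM in the other controls and 54.4 to 65.1 CPM in sepsis. The same library also had the highest macrophage marker sum of the controls (180 CPM, others 71.2 to 85.5 CPM). Its fibro-adipogenic sum was the highest too (1469 CPM, others 804 to 911 CPM), and its muscle fibre sum was the lowest (136265 CPM). Whether this bears on Chmp2b was not tested. Vps52, of the GARP complex, was at 11.8 CPM in control library 5, against 14.1 to 14.8 CPM in the other controls. Groups of 3 were not examined for such libraries.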

How the results depend on the processing

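Of the genes called, 14 of 24 higher and 2 of 9 lower kept their side of the threshold in every alternative that tested them, as did 17 of the 33 not called. With library totals alone 39 genes were higher and 3 lower, and Snx3 turned from -0.32 to 0.10. With voom weights 5 were lower. Leaving out 1 library gave 20 to 25 higher and 5 to 9 lower, with 5 lower without control library 1, 2 or 4 or sepsis library 1. Class counts of 5 or fewer changed by more than 1.5 times in several of these settings. ESCRT-III had 6 to 7 higher genes without any 1 library and 5 with a replicate block. The pairs past the threshold numbered 4 to 6 by raw p without any 1 library, and none passed after adjustment there. A pass after adjustment would have needed most of the 13 pairs at the smallest possible p, so it could not show stability. Both groups carry replicate numbers 1 to 3, but same-numbered libraries did not deviate together (correlations -0.12 to 0.04), so the numbers are not taken to pair them. With a replicate block 15 genes were higher and 5 lower. No block was run for the paralog ratios, because the smallest exact p with 3 pairs is 0.25. Genes with few reads, such as Vps37b, limit what this depth can show.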
